A study of Mus musculus with 22 samples.

Results

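The 9 genes described here belong to the CC chemokine system: the ligand genes Ccl2, Ccl6, Ccl7, Ccl8, Ccl9, Ccl11 and Ccl12, and the receptor genes Ccr1 and Ccr2. The 9 genes were chosen by symbol for what is known of them, the attraction of monocytes and eosinophils, out of 52526 distinct symbols measured, and all 9 were among the 15138 genes tested, which were above the lowest listed value in at least 5 mice. They were chosen with earlier results of these data known. RNA was measured in the left 4th mammary tissue of 22 female C57BL/6J mice aged 7 to 8 weeks. All of them had been engrafted there with EO771 cells, a mammary cancer line of the same strain that here expressed firefly luciferase, and the tissue was collected 24 hours later, so that RNA of the engrafted cells and of the host was measured together. Control mice lived for 2 weeks with a hub shelter and wheel mice with a hub that carried a running wheel, which they kept until collection. Liposomes were injected into a vein 24 hours before engraftment and again at engraftment, and held either PBS or clodronate, a drug that kills phagocytes which take the liposomes up. PBS liposomes went to 6 control mice and 6 wheel mice, clodronate liposomes to 5 of each, so the design asked how activity and the loss of phagocytes, alone and together, bore on gene expression. Each replicate number in the labels belongs to a separate mouse in each group.

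CC chemokines are small secreted proteins that bind G protein-coupled receptors on leukocytes and direct their movement along a gradient. Ccr2 binds the products of Ccl2, Ccl7 and Ccl12 and is carried by inflammatory monocytes, which leave the bone marrow through it; Ccr1 is shared by several ligands, among them those of Ccl6, Ccl7 and Ccl9, and the eotaxin made from Ccl11 acts through Ccr3 on eosinophils. In mammary fat and in tumors these ligands come from macrophages, fibroblasts and cancer cells.

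Values were CPM, reads of a gene scaled to the library's total, with every value below 1 set to 1, called the floor below. The libraries held 13256467 to 20484578 reads (median 16293026), so the floor stood for 13 reads or fewer in the shallowest and 20 or fewer in the deepest library. Levels below the floor cannot be seen in these values. The reads came from the 3′ end, about 1 per transcript whatever its length, so levels on the CPM scale could be set side by side between genes. Depth by group was 13701891 to 17947621 reads in control PBS mice, 13314092 to 17626737 in wheel PBS mice, 13256467 to 20484578 in control clodronate mice and 14519134 to 18771385 in wheel clodronate mice. Markers of lymphocytes set 5 mice apart. The mean log2(CPM + 1) of 12 lymphocyte genes was 4.35 in control PBS mouse 2, 4.58 in wheel PBS mouse 3, and 5.58, 5.70 and 5.09 in wheel clodronate mice 3, 4 and 5, and at most 1.32 in the other mice. The main results that rested on these 5 mice are given with and without them.

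The 7 ligand genes lie on chromosome 11 in the GENCODE M21 annotation of GRCm38, and the 2 receptor genes on chromosome 9. Ccl2 (ENSMUSG00000035385.5, chr11:82035571-82037453, plus strand) is followed by Ccl7 (ENSMUSG00000035373.2, chr11:82045712-82047525) after 8258 bases and by Ccl11 (ENSMUSG00000020676.2, chr11:82057823-82062955) after another 10297 bases. Ccl12 (ENSMUSG00000035352.3, chr11:82101845-82103400) and Ccl8 (ENSMUSG00000009185.2, chr11:82115185-82116799) stand on the same strand, 11784 bases from each other. Ccl9 (ENSMUSG00000019122.8, chr11:83572919-83578636) and Ccl6 (ENSMUSG00000018927.3, chr11:83587882-83593087) form a second group on the minus strand, with 9245 bases between them. Ccr1 (ENSMUSG00000025804.5, chr9:123962124-123968692, minus strand) and Ccr2 (ENSMUSG00000049103.14, chr9:124101950-124113557, plus strand) are separated by 133257 bases. Over the last 400 bases of their transcripts, where the reads fall, no member matched another member at 85% identity or more, and the longest match to another gene was 247 bases at 85% identity, between Ccl9 and Adipor1.

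RefSeq promoters (GRCm38.p6, 250 bases before to 50 after the start) were found for 6 of the 9 genes, and not for Ccl2, Ccl7 and Ccl11. Those of the neighbouring pairs Ccl6 with Ccl9 and Ccl8 with Ccl12 are shown because they held the longest runs of identical bases among the 6 promoters, and because Ccl6 and Ccl9 varied together between mice. Capitals mark that run, which was 13 bases long in the first pair and 11 in the second.
Ccl6 (chr11:83593038-83593337, minus strand): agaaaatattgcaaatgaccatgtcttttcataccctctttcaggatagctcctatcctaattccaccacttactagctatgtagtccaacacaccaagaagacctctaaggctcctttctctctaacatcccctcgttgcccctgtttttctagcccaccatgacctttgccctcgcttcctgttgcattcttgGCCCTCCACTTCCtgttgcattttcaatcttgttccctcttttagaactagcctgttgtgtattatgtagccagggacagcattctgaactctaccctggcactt
Ccl9 (chr11:83578587-83578886, minus strand): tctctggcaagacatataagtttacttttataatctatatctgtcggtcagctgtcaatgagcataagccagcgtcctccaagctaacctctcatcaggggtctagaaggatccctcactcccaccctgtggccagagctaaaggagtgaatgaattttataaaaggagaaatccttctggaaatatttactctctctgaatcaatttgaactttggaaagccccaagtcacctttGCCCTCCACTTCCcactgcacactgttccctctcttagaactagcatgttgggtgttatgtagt
Ccl8 (chr11:82114935-82115234, plus strand): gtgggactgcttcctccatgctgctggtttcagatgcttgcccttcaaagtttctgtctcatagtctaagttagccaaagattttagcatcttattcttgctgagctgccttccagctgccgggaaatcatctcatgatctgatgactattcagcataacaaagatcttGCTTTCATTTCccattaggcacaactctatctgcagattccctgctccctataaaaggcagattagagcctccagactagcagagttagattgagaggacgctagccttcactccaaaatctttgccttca
Ccl12 (chr11:82101595-82101894, plus strand): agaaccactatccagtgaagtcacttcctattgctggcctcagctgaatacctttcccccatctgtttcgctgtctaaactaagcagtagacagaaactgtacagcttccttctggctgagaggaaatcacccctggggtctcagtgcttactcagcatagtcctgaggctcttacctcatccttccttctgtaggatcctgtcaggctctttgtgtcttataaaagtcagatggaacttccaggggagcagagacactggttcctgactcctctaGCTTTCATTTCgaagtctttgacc
The best local alignment of the Ccl6 and Ccl9 promoters covered 74 columns, of which 59 (79.7%) were identical, and that of Ccl8 and Ccl12 covered 36 columns with 28 (77.8%) identical. The marked run of Ccl8 and Ccl12 lay outside their alignment. It began at position -81 from the start in Ccl8 and at 26, after the start, in Ccl12. Other pairs of the 6 promoters shared runs of up to 9 bases, and the length expected by chance was not computed. The letters TATAAA, searched on the coding strand, began at position -32 from the start in Ccl8, -31 in Ccl12 and -92 in Ccl9, and were absent from the windows of Ccl6, Ccr1 and Ccr2; 8.32% of 32851 promoters held them. On either strand, TGANTCA (7.81% of promoters) had 1 match, at -53 in Ccl9, and GAGGAA (28.3% of promoters) had 1 match each in Ccl8, Ccl12 and Ccr1. The NF-kB motif (4.51% of promoters) had 1 match, in Ccl9, while the GAS element and the STAT6 form of it had 0 matches in the 6 windows and were held by 8.30% and 6.95% of all promoters. These matches describe letters in a window and show no bound factor.

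Over the 22 mice, Ccl6 had the highest mean level of the 9 genes, 88.4 CPM ± 41.6 (SD, n = 22). Ccl9 followed at 30.6 ± 14.0, Ccr2 at 23.9 ± 17.1, Ccl8 at 17.1 ± 12.5 and Ccl11 at 13.4 ± 7.94 CPM. The lowest were Ccl2 at 9.69 ± 12.8, Ccl7 at 6.66 ± 8.94, Ccl12 at 2.04 ± 2.15 and Ccr1 at 2.00 ± 1.92 CPM. Most neighbours in this order differed by less than the SD of either, so the order is loose. The steps from Ccl6 to Ccl9 and from Ccl7 to Ccl12 were larger than the SD of 1 or both genes. Ccl6, Ccl8, Ccl9, Ccl11 and Ccr2 were above the floor in all 22 mice, Ccl2 and Ccl7 in 18, Ccl12 in 10 and Ccr1 in 8. Wheel PBS mouse 4 had the highest value of 5 of the genes, Ccl2, Ccl7, Ccl12, Ccr1 and Ccr2.

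**Figure D1:**
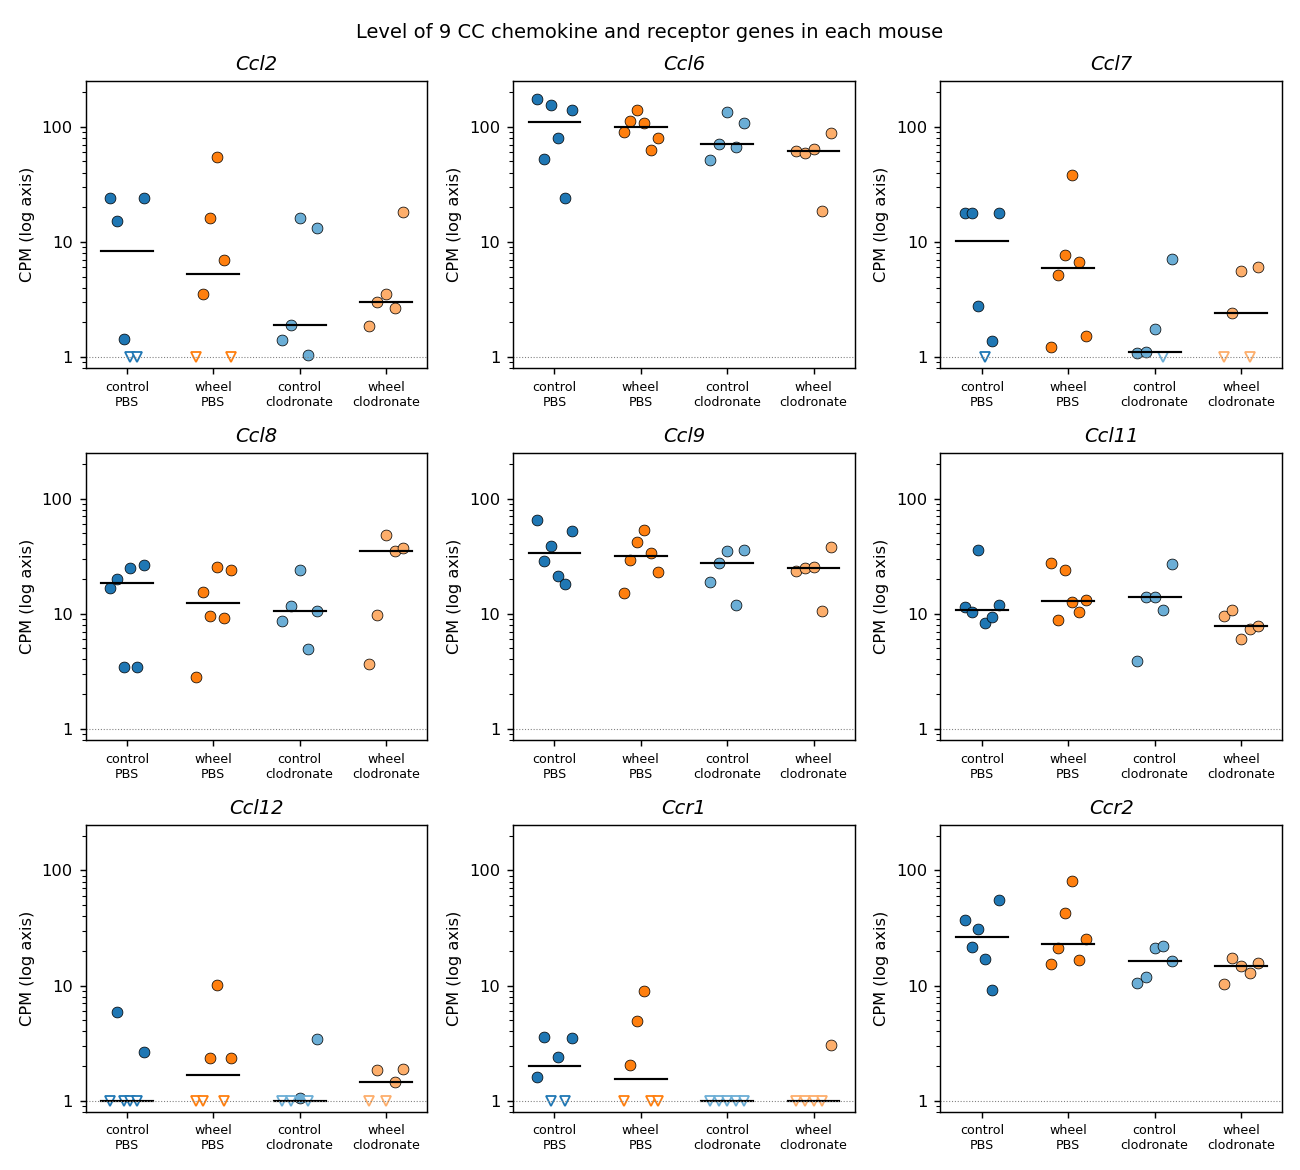
Level of each gene in each mouse, in CPM on a log axis, with the 4 groups side by side; filled circles are single mice, open triangles are mice at the floor of 1 CPM, and bars are group medians. Ccl2 and Ccl7 spread from the floor to 54.6 and 37.9 CPM, Ccl6 stayed between 18.6 and 174.1 CPM, and Ccr1 was at the floor in all 5 control clodronate mice.

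Ccl2 encodes the main ligand of Ccr2. In control PBS mice it ran from the floor to 24.2 CPM (median 8.27), and in wheel PBS mice from the floor to 54.6 CPM (median 5.26). The control clodronate mice had 1.42, 1.89, 16.3, 1.05 and 13.1 CPM, and the wheel clodronate mice 1.86, 3.01, 3.52, 2.67 and 18.2 CPM. In every group some mice were close to the floor and 1 or more mice were several times higher, and all 4 groups overlapped.

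Ccl7, the next gene on the chromosome, encodes a ligand of Ccr1 and Ccr2. It ran from the floor to 17.7 CPM (median 10.2) in control PBS mice and from 1.22 to 37.9 CPM (median 5.90) in wheel PBS mice. Its values were 1.07, 1.10, 1.74, 1.00 and 7.17 CPM in control clodronate mice and 1.00, 2.43, 5.59, 1.00 and 6.07 CPM in wheel clodronate mice. The highest clodronate mouse thus lay below 5 of the 12 PBS mice, and the groups overlapped. Ccl12, the mouse gene for a further Ccr2 ligand, was at the floor in 4 of 6 control PBS, 3 of 6 wheel PBS, 3 of 5 control clodronate and 2 of 5 wheel clodronate mice, and its highest value was 10.1 CPM, in wheel PBS mouse 4.

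Ccl8, known in mice as a ligand of Ccr8 and made by macrophages of the skin and other tissues, had 3.46 to 26.3 CPM (median 18.5) in control PBS mice and 2.80 to 25.5 CPM (median 12.4) in wheel PBS mice. Control clodronate mice had 8.59, 11.6, 24.2, 4.94 and 10.5 CPM, and wheel clodronate mice 3.65, 9.66, 48.1, 35.3 and 37.3 CPM. The 3 highest values of all 22 mice were those of wheel clodronate mice 3, 4 and 5, which also had the highest lymphocyte scores; the part of these cells in the Ccl8 level was not tested.

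Ccl6 and Ccl9 encode ligands of Ccr1 that myeloid cells make. Ccl6 ran from 24.3 to 174.1 CPM (median 110.5) in control PBS mice and from 63.5 to 141.2 CPM (median 99.0) in wheel PBS mice. It had 51.3, 70.2, 135.8, 67.1 and 108.9 CPM in control clodronate mice and 61.2, 59.2, 64.5, 18.6 and 87.9 CPM in wheel clodronate mice. The lowest Ccl6 value of the 22 mice was that of wheel clodronate mouse 4, and the groups overlapped. Ccl9 lay between 10.6 and 65.8 CPM, with group medians of 33.9 (control PBS), 31.5 (wheel PBS), 27.9 (control clodronate) and 25.0 CPM (wheel clodronate). Ccl11, which encodes eotaxin, lay between 3.86 and 35.6 CPM, with medians of 10.9, 12.9, 13.9 and 7.88 CPM in the same order; its 5 wheel clodronate mice lay between 6.02 and 10.8 CPM, inside the range of the control clodronate mice.

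Ccr2 marks inflammatory monocytes and cells that derive from them. It ran from 9.10 to 54.9 CPM (median 26.4) in control PBS mice and from 15.4 to 81.1 CPM (median 23.1) in wheel PBS mice. Control clodronate mice had 10.5, 11.9, 21.3, 22.2 and 16.4 CPM, and wheel clodronate mice 10.3, 17.2, 14.9, 12.8 and 15.7 CPM. All clodronate mice lay at or below 22.2 CPM, while 6 of the 12 PBS mice lay above that value and 1, control PBS mouse 5, below all clodronate mice. Ccr1 was low throughout. It was above the floor in 4 of 6 control PBS mice (highest 3.59 CPM), in 3 of 6 wheel PBS mice (highest 8.98 CPM), in 0 of 5 control clodronate mice and in 1 of 5 wheel clodronate mice (3.04 CPM).

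The first comparison asked what the wheel did in mice with PBS liposomes. The 9 genes differed by -0.15 to 0.22 on the log2 scale of CPM + 1, with 6 above and 3 below 0 and a median of 0.16, beside a median of -0.08 over all genes tested. By limma, 0 of the 9 genes passed an adjusted p of 0.05 (0 of 15138 genes, 0%), and at an unadjusted p under 0.05 the counts were 0 of 9 genes and 744 of 15138 (4.91%). Of all genes, 63.8% had a negative difference, against 50.2% after upper-quartile scaling, and under that scaling the small differences of Ccl7 and Ccl8 turned from -0.06 and -0.05 to 0.016 and 0.045. The widest interval was that of Ccl2, whose difference of 0.08 (SE 0.85) had a 95% interval from -1.68 to 1.84, and the direction turned to -0.51 without wheel PBS mouse 4.

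With clodronate liposomes, wheel and control mice differed by -0.63 (Ccl6, SE 0.44) to 0.81 (Ccl8, SE 0.66) on the log2 scale. Limma again called 0 of the 9 genes, beside 1 of 15138 genes (0.00661%), the predicted gene Gm7536. At an unadjusted p under 0.05 the counts were 0 of 9 and 1579 of 15138 (10.4%). Without the 5 lymphocyte-rich mice the Ccl8 difference was -0.72, opposite in direction, and 2 wheel clodronate mice were left. The wheel effect did not differ between the liposomes for any of the 9 genes past the threshold: the adjusted p for the difference was at least 0.797, with 0 of 9 genes and 0 of 15138 genes (0%) called by limma, and 0 of 9 and 1147 of 15138 (7.58%) at an unadjusted p under 0.05. The largest such differences were those of Ccl8, 0.85 (SE 0.89), and Ccl6, -0.79 (SE 0.59), which were -0.86 and -0.34 without the lymphocyte-rich mice.

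Clodronate liposomes were compared with PBS liposomes over both activities. All but Ccl8, 8 of the 9 genes, had a negative difference, with a median of -0.45 on the log2 scale beside -0.04 for all genes tested, of which 57.4% were negative. None passed an adjusted p of 0.05 by limma (0 of 9, beside 31 of 15138 genes, 0.205%, all lower with clodronate and led by Dhrs7). At an unadjusted p under 0.05, 3 of the 9 genes were lower with clodronate, beside 1256 of 15138 genes lower (8.3%) and 1579 in either direction (10.4%). After upper-quartile scaling 49.2% of all genes were negative, and 785 were lower and 559 higher at an unadjusted p under 0.05, again with 3 of the 9 genes. These were Ccr2, which differed by -0.78 (SE 0.28, adjusted p = 0.279 by limma), Ccr1 by -0.57 (SE 0.25, adjusted p = 0.424) and Ccl7 by -1.08 (SE 0.50, adjusted p = 0.456). Each of these fails the correction over all genes. Ccr1 was above the floor in 4 of 6 control PBS and 3 of 6 wheel PBS mice. With clodronate it was above the floor in 0 of 5 control and 1 of 5 wheel mice. Ccr1 thus passed the filter mostly through PBS mice. The floor limits the size of its difference, which is no measure of the fold. Without the 5 lymphocyte-rich mice, 0 of the 9 genes had an unadjusted p under 0.05 and 0 genes passed the adjusted threshold, with 1898 at an unadjusted p under 0.05. The differences of Ccr2 (-0.77), Ccr1 (-0.52) and Ccl7 (-1.14) stayed about as large with 5 fewer mice, and Ccl8 was then negative too (-0.49). Genes of other cells were also lower: 4 of 8 fibroblast markers (median -0.34) and 3 of 8 adipocyte markers (median -0.27, all 8 negative) at an unadjusted p under 0.05, with 0 called by limma. Without the lymphocyte-rich mice 3 of 8 fibroblast markers (median -0.34) and 1 of 8 adipocyte markers (median -0.23, 7 negative) were lower. Skeletal muscle markers went the other way, all 6 higher with a median of 1.54 and 0 at an unadjusted p under 0.05, and 2.86 with 4 of 6 at that p without the lymphocyte-rich mice. In tissue RNA, fewer cells that carry Ccr2 and less Ccr2 RNA per cell cannot be told apart.

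**Figure D2:**
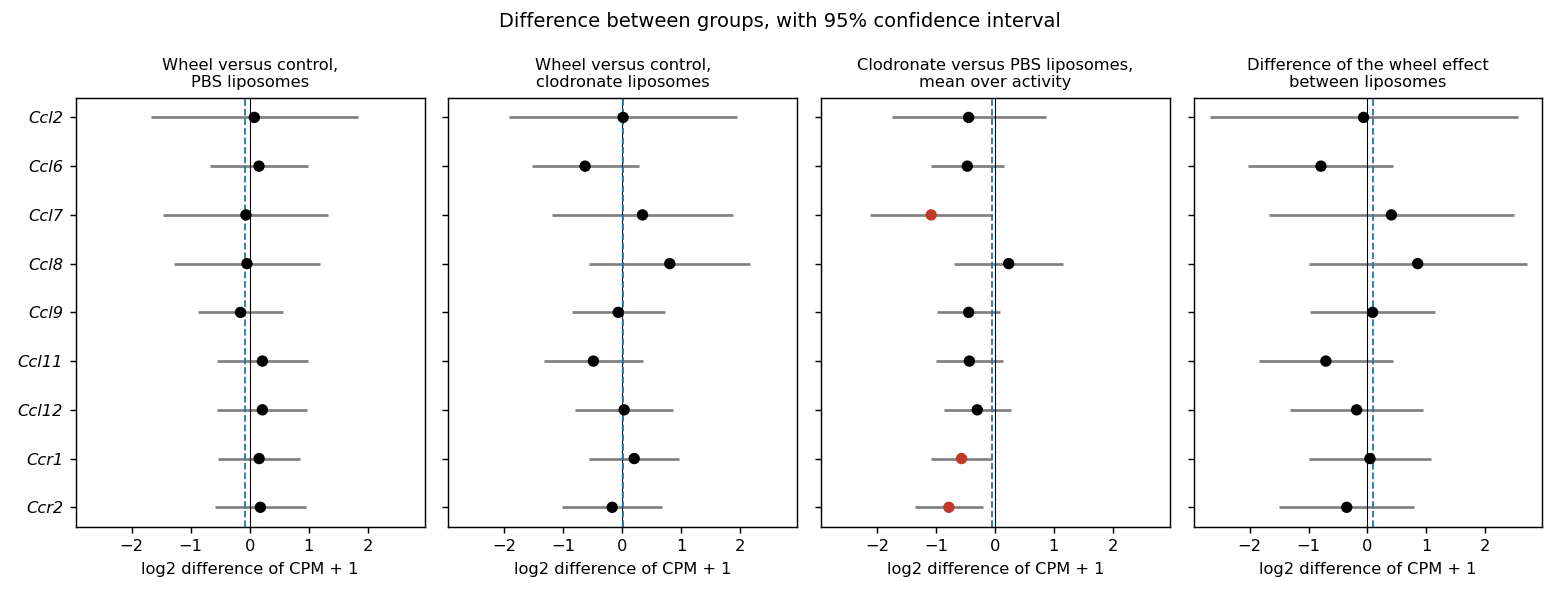
Log2 difference between groups for each gene in the 4 comparisons, with 95% confidence intervals from limma; red points have an unadjusted p under 0.05, the solid line is 0 and the dashed line is the median of all genes tested. The red points are Ccl7, Ccr1 and Ccr2 with clodronate against PBS liposomes, and no point passed an adjusted p of 0.05.

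Mice of the same group differed widely, so the mice were also compared after the group mean of log2(CPM + 1) was subtracted. Of the 36 pairs of the 9 genes, 34 had a positive Pearson r over the 22 mice, with a median of 0.476. In 14 pairs, all positive (r from 0.63 to 0.91), the permutation p adjusted over the 36 pairs was under 0.05, and in these r without the 2 mice farthest from the median was 0.50 to 0.88. By Spearman's rho 9 pairs passed, all of them among the 14. The same counts were not made for pairs of other tested genes. Whether the 9 genes varied together more than other genes of this tissue was therefore not tested. Leaving out wheel PBS mouse 4 left 6 of the 14. Without the 5 lymphocyte-rich mice 8 of the 14 passed, and Ccl12 with Ccr2 passed in addition. The pairs that no longer passed with 17 mice kept an r of similar size, for example 0.79 for Ccl12 with Ccr1, 0.71 for Ccr1 with Ccr2 and 0.66 for Ccl9 with Ccr2. Within the 12 PBS mice 13 pairs passed, and within the 10 clodronate mice 0 pairs passed, a split chosen after the data were seen. In clodronate mice r was still 0.86 for Ccl6 with Ccl9 (0.70 in PBS mice), 0.74 for Ccl2 with Ccl9 (0.84) and 0.71 for Ccl2 with Ccl7 (0.98), so the lower count does not show that these relations were absent there. Other pairs that passed in PBS mice had a lower r in clodronate mice. It was 0.087 for Ccl9 with Ccr2 (0.86 in PBS mice), 0.16 for Ccr1 with Ccr2 (0.73) and 0.25 for Ccl12 with Ccr1 (0.81). For Ccl7 with Ccr2 it was 0.34 (0.76), and for Ccl2 with Ccr2 0.43 (0.79). Differences between these r values were not tested.

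The closest pair was Ccl2 and Ccl7, which are neighbours on chromosome 11: r = 0.91 (permutation p = 2e-05, adjusted p = 0.00072), rho = 0.92 (permutation p = 2e-05, adjusted p = 0.00072), and r = 0.88 without the 2 farthest mice. It was also r = 0.88 without wheel PBS mouse 4. Ccl9 followed both, with r = 0.80 for Ccl2 (permutation p = 0.00021, adjusted p = 0.00264, rho = 0.82, permutation p = 0.0001, adjusted p = 0.0018, r = 0.76 without the 2 mice) and r = 0.76 for Ccl7 (permutation p = 0.00036, adjusted p = 0.00324, rho = 0.76, permutation p = 0.00037, adjusted p = 0.00444, r = 0.72). Ccl6 and Ccl9, whose promoters are printed above, gave r = 0.76 (permutation p = 0.00022, adjusted p = 0.00264), rho = 0.76 (permutation p = 0.0005, adjusted p = 0.0045) and r = 0.68 without the 2 mice. Ccl8 and Ccl12, the other printed pair, were not past the threshold, and neither was any pair with Ccl11. Ccl8 and Ccl11 had the lowest r, -0.38.

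**Figure D3:**
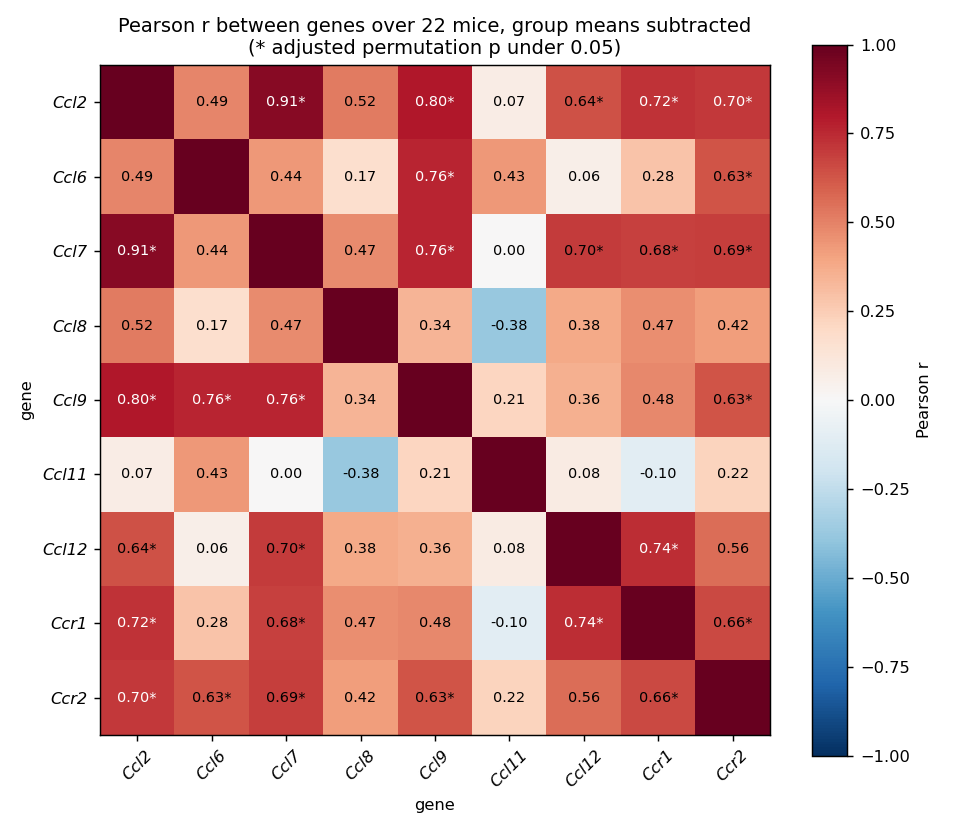
Pearson r between the 9 genes over 22 mice with group means subtracted; colour and number give r, and an asterisk marks an adjusted permutation p under 0.05. Ccl2, Ccl7 and Ccl9 form the strongest block, up to r = 0.91, and the row of Ccl11 has no asterisk.

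The receptors passed with several of the ligands. Ccr2 passed with Ccl2 (r = 0.70, permutation p = 0.0024, adjusted p = 0.0101, rho = 0.65, permutation p = 0.00727, adjusted p = 0.0327, r = 0.63 without the 2 mice), and also with Ccl6, Ccl7, Ccl9 and Ccr1, of which Ccl7 and Ccr1 not by rho. Without wheel PBS mouse 4, Ccr2 passed with Ccl6 alone (r = 0.72). Its adjusted permutation p was then 0.0653 with Ccl2 (r = 0.61), 0.106 with Ccl7 (r = 0.57), 0.0653 with Ccl9 (r = 0.58) and 0.139 with Ccr1 (r = 0.48). Over all 22 mice r was 0.69 with Ccl7, 0.63 with Ccl9 and 0.66 with Ccr1. Ccr1 passed with Ccl2, Ccl7, Ccl12 and Ccr2 by Pearson's r, and of these only with Ccl12 by rho (r = 0.74, permutation p = 0.00125, adjusted p = 0.0075, rho = 0.67, permutation p = 0.00668, adjusted p = 0.0327, r = 0.50 without the 2 mice). Ccr1 and Ccl12 were at the floor in 14 and 12 mice, so these values rest on few mice, and without wheel PBS mouse 4 Ccr1 passed with Ccl2 alone. The r of Ccr1 was then 0.62 with Ccl2, 0.53 with Ccl7 and 0.53 with Ccl12.

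The 9 genes were then set against 12 lists of markers (monocytes, macrophages, eosinophils, neutrophils, mast cells, lymphocytes, fibroblasts, adipocytes, epithelium, endothelium, skeletal muscle and dividing cells). Each list was summarised as its mean log2(CPM + 1) per mouse with the group mean subtracted, and the 108 relations were added after the data were seen. Of these, 15 had an adjusted permutation p under 0.05 by Pearson's r, 14 by rho and 12 by both. Of the 15, 7 were with the monocyte list, 5 with the list of dividing cells and 1 each with the macrophage, mast cell and adipocyte lists. Without wheel PBS mouse 4 the 15 became 6, of which 3 were with the monocyte list. They became 8 without the lymphocyte-rich mice, 8 with the lymphocyte score as a covariate, 4 in the 12 PBS mice alone and 0 in the 10 clodronate mice alone. The 4 in PBS mice were those of the monocyte list with Ccl2, Ccl7, Ccr1 and Ccr2. No relation with another list passed in PBS mice alone.

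The monocyte list followed Ccl7 (r = 0.86, permutation p = 4e-05, adjusted p = 0.00216, rho = 0.87, permutation p = 5e-05, adjusted p = 0.0027, r = 0.80 without the 2 mice) and Ccl2 (r = 0.85, permutation p = 2e-05, adjusted p = 0.00216, rho = 0.86, permutation p = 2e-05, adjusted p = 0.00216, r = 0.79). For Ccr2 r was 0.76 (permutation p = 0.00036, adjusted p = 0.00833, rho = 0.67, permutation p = 0.00294, adjusted p = 0.0397, r = 0.60), and for Ccl8 r was 0.75 (permutation p = 0.00052, adjusted p = 0.00833, rho = 0.73, permutation p = 0.00058, adjusted p = 0.0126, r = 0.74). Ccl9, Ccl12 and Ccr1 passed as well, Ccr1 not by rho, and Ccl6 and Ccl11 did not. Without the lymphocyte-rich mice Ccl8, Ccl12 and Ccr1 no longer passed (adjusted permutation p = 0.088, 0.0853 and 0.0878), although r was about as large with 17 mice (0.70, 0.71 and 0.77). Without wheel PBS mouse 4, Ccl2, Ccl7 and Ccl8 passed and Ccr2 did not (0.0575, r = 0.68), nor did Ccl9, Ccl12 and Ccr1 (r = 0.58, 0.52 and 0.62). In the 12 PBS mice r was 0.91 for Ccl2 and 0.92 for Ccl7, and in the 10 clodronate mice 0.68 and 0.65. Lower values in clodronate mice were those of Ccr2 (0.45, against 0.85 in PBS mice), Ccl9 (0.43, 0.76), Ccr1 (0.40, 0.81) and Ccl12 (0.16, 0.79). For Ccl8 r was 0.67 in PBS mice and 0.93 in clodronate mice (adjusted p = 0.144 and 0.0875, by permutation). The latter includes lymphocyte-rich wheel clodronate mice 3, 4 and 5, which were high in both, and no r within clodronate mice is given without them. Differences between the r values of PBS and clodronate mice were not tested.

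**Figure D4:**
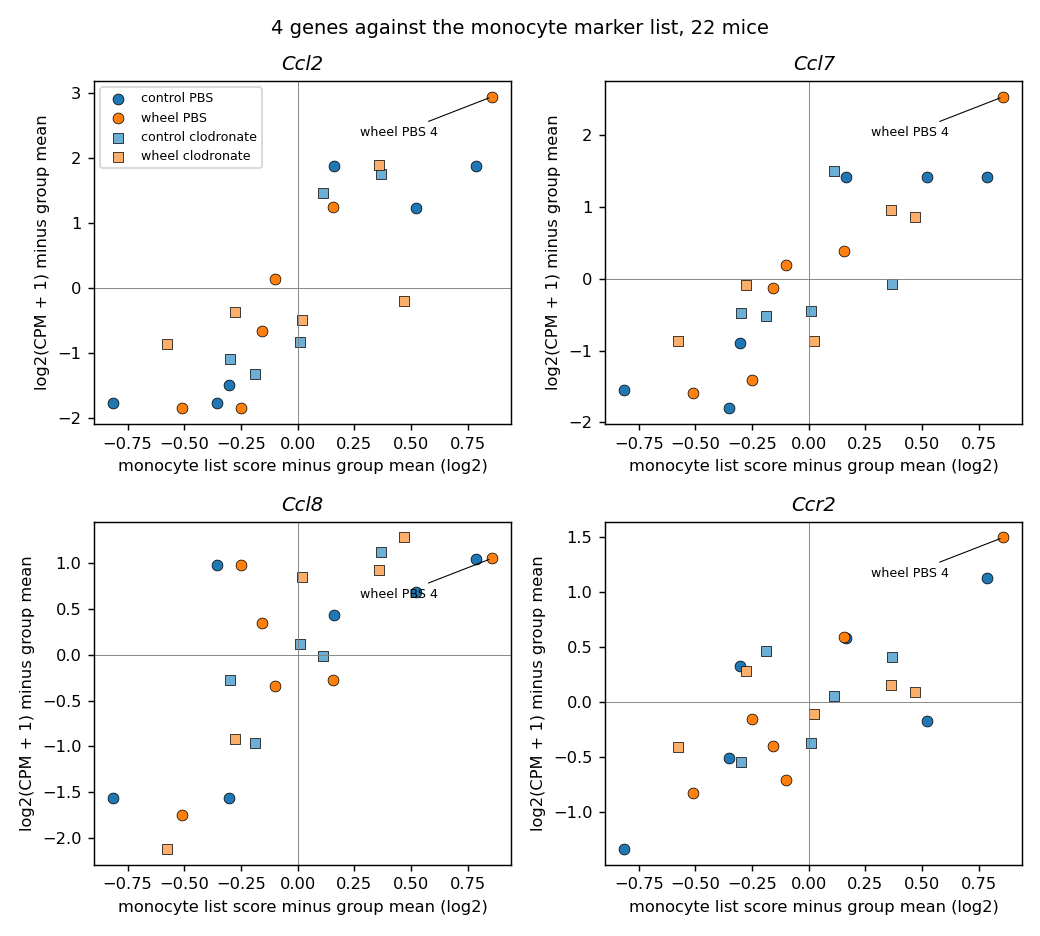
Ccl2, Ccl7, Ccl8 and Ccr2 (log2(CPM + 1) minus the group mean) against the monocyte list score minus its group mean, 1 point per mouse, coloured by group, with circles for PBS and squares for clodronate liposomes. The points rise from lower left to upper right (r = 0.85, 0.86, 0.75 and 0.76), and wheel PBS mouse 4 is the upper right point for Ccl2, Ccl7 and Ccr2.

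The monocyte list summed to 66.2 to 240.2 CPM in control PBS mice (median 146.5), 108.5 to 267.9 in wheel PBS mice (median 132.3), 82.0 to 146.5 in control clodronate mice (median 91.8) and 88.6 to 295.4 in wheel clodronate mice (median 230.6). The 3 highest wheel clodronate sums were those of lymphocyte-rich mice 3, 4 and 5 (230.6, 295.4 and 237.5 CPM), and mice 1 and 2 had 88.6 and 135.0 CPM. Its most abundant genes were F13a1 (mean 40.0 CPM), Plac8 (35.5 CPM) and Ly6c2 (19.2 CPM, at the floor in 4 mice), of which Plac8 and Ly6c2 averaged 23.7 and 10.4 CPM without the lymphocyte-rich mice, and none of its 11 genes was at the floor in all mice. With clodronate the 10 genes tested had a median difference of 0.06, beside -0.04 for all genes, 0 called by limma and 1 lower at an unadjusted p under 0.05, F13a1 (-0.69, SE 0.23, adjusted p = 0.232). Without the lymphocyte-rich mice the median was -0.12 and the F13a1 difference -0.56. The list of dividing cells passed with Ccl2 (r = 0.73, permutation p = 0.00054, adjusted p = 0.00833, rho = 0.72, permutation p = 0.00087, adjusted p = 0.0134, r = 0.71 without the 2 mice), Ccl9, Ccl8, Ccl7 and Ccr1, the last not by rho. It summed to between 9.17 and 230.7 CPM, its most abundant genes were Top2a (52.9 CPM), Birc5 (18.0 CPM) and Cdk1 (12.6 CPM), and none of its 5 genes was at the floor in all mice. The part of monocytes or dividing cells in the level of the 9 genes was not tested.

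Macrophage markers were present in every mouse, with a summed level of 266.5 to 630.8 CPM over 15 genes, led by C1qa (67.6 CPM) and C1qb (58.1 CPM). Ccr2 passed with this list by both measures (r = 0.60, permutation p = 0.00217, adjusted p = 0.0234, rho = 0.65, permutation p = 0.00063, adjusted p = 0.0126, r = 0.44 without the 2 mice). Ccl8 passed by rho alone (r = 0.63, permutation p = 0.00837, adjusted p = 0.0565, rho = 0.62, permutation p = 0.00623, adjusted p = 0.0481, r = 0.60). With clodronate the 15 macrophage genes had a median difference of -0.18, 0 were called by limma and 2 were lower at an unadjusted p under 0.05. Without the lymphocyte-rich mice the median was -0.47, with 0 called and 5 lower. The mast cell list passed with Ccl7 (r = 0.60, permutation p = 0.00573, adjusted p = 0.0413, rho = 0.63, permutation p = 0.0048, adjusted p = 0.0463, r = 0.55 without the 2 mice), and with Ccl2 by rho alone. Eosinophil markers were at or near the floor: Epx, Ear1 and Ear6 were at it in all 22 mice, Siglecf and Il5ra were above it in 1 mouse, Ccr3 and Prg2 in 3 and Alox15 in 4, while Ear2, the most abundant, had a mean of 1.83 CPM. Ccl11 was thus above the floor in all 22 mice, and its receptor gene Ccr3 in 3.

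For each of the 9 genes, the 3 tested genes with the highest r over the 22 mice, group means subtracted, were taken out of 15137 and are given with no test. For Ccl2 these were Fosl1 (0.94), Plaur (0.93) and 4930550L24Rik (0.93), and for Ccl7 Gm10036 (0.94), Rhox5 (0.92) and Fosl1 (0.91). Fosl1 encodes a subunit of AP-1 and Plaur the urokinase receptor. For Ccl9 they were Itgam (0.88), the integrin chain of myeloid cells, Slc16a3 (0.87) and Nup188 (0.85), and for Ccl6 Axl (0.84), Tnpo3 (0.77) and Ccl9 (0.76). For Ccl8 they were Tubb5 (0.87), Lmnb1 (0.86) and Baz1a (0.84), for Ccl11 Cdc42ep3 (0.84), Tsg101 (0.81) and Ost4 (0.76), and for Ccl12 Gm10603 (0.93), Gm15832 (0.86) and Oasl1 (0.82). The receptors were closest to Prpf3 (0.84), Ifi204 (0.83) and Rundc3a (0.83) for Ccr1, and to Tnpo3 (0.84), Ddah1 (0.84) and Atp6v1b2 (0.83) for Ccr2.

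Other genes of the same system were mostly low. Of 13 other CC ligand genes 7 were tested, and limma called 0 in each of the 4 comparisons, with 0 at an unadjusted p under 0.05. The highest were Ccl5 (27.6 CPM), Ccl27a (12.4 CPM) and Ccl24 (5.99 CPM), another eotaxin. Ccl5 had 57.0 to 151.6 CPM in the 5 lymphocyte-rich mice and a mean of 6.26 CPM in the other 17, below the 14.3 CPM of Ccl27a there. Of 12 other receptor and decoy receptor genes 9 were tested and 0 called; with the wheel and clodronate 3 were higher at an unadjusted p under 0.05, among them Ccr7 (2.41, SE 0.85, adjusted p = 0.281), a receptor of lymphocytes and dendritic cells. That difference rests on the lymphocyte-rich wheel clodronate mice 3, 4 and 5, and without the lymphocyte-rich mice it was -0.15, with 0 genes of the list at an unadjusted p under 0.05 in this comparison. With clodronate against PBS 1 gene of the list was lower at that p, with and without these mice. Over all mice Ccr7 (7.97 CPM), Ackr1 (7.72 CPM) and Ackr4 (6.43 CPM) were the most abundant of the list, while in the 17 other mice Ccr7 averaged 1.42 CPM, below Ackr1 (7.39 CPM) and Ackr4 (6.85 CPM).

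Of the cytokines known to induce these ligands, Il4, Il5, Il6 and Il13 were at the floor in all 22 mice, 5 of 11 genes were tested and 0 called, and the highest were Csf1 (20.7 CPM), Il33 (7.78 CPM) and Tslp (2.63 CPM). At an unadjusted p under 0.05 the wheel gave 1 higher gene with PBS liposomes, Tslp (0.79, SE 0.38, adjusted p = 0.987, and 0.43 without the lymphocyte-rich mice), and 1 with clodronate liposomes. Without the lymphocyte-rich mice 0 of these cytokine genes were at that p in either wheel comparison. Of 8 genes of the NF-kB and STAT6 pathways, which switch on Ccl2 and Ccl11, all 8 were tested and 0 called. The highest were Nfkbia (365.3 CPM), Rela (41.4 CPM) and Stat6 (29.0 CPM), and Nfkbia, an inhibitor that NF-kB induces, was higher with clodronate at an unadjusted p (0.40, SE 0.14, adjusted p = 0.250 by limma).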

How the data were processed

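Libraries were made with the Lexogen QuantSeq 3′ FWD kit. Per the submitters' processing notes, reads were mapped with STAR 2.5.3a to GRCm38. The authors deposited 1 signal per gene and mouse, in CPM, with values below 1 set to 1. Above that floor 100% of values were whole multiples of 1 read (tolerance 0.02 reads), which gave each library's total, unmapped and multimapping reads included. Because the floor hides small counts, count-based tests were not used. For 106 symbols listed more than once, none of them among the 9 genes, the row with the highest mean was kept. Groups came from the labels.

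The filter kept genes over the floor in 5 or more mice, tested on log2(CPM + 1) with limma 3.58.1 in R 4.3.3 (4 group means, empirical Bayes with a variance trend, Benjamini-Hochberg adjustment over 15138 genes). The step was tested on simulated data. Correlations used Python 3.11.15 with numpy 2.4.6, 100000 2-sided permutations of mice within groups and Benjamini-Hochberg adjustment over the family. The members and gene lists were chosen with earlier results of these data known. Genes named from a list were those past an adjusted p of 0.05 and the 3 with the highest mean; the 3 most alike genes per member and the most significant gene per comparison were added to these. Eosinophil markers and inducing cytokines are named besides, to show which were at or near the floor. A gene that this rule names is not reported here. Alternatives were other pseudocounts, filters and scalings, no variance trend, only the groups compared, a replicate block, a lymphocyte covariate, and leaving out mice. The 108 relations with marker lists, their alternatives and the split by liposome were chosen after seeing the data.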

Additional observations from a re-analysis of the deposited data

Results flagged for a closer look

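Within each group, the mouse farthest from the others was compared with the spread of the group (Dixon's ratio, the gap to the next mouse over the range, on the log2 scale). Gene groups with 2 or more mice at the floor (11 groups) and the lymphocyte score were left out after the data were seen, because there the floor sets the ratio. Of 37 groups tested 5 passed the limit, and chance alone passes about 1 in 20.

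For the chemokine genes, the highest mouse stood apart for Ccl11 in control PBS mice (mouse 3, ratio 0.763), Ccl7 in control clodronate mice (mouse 5, 0.775) and Ccl2 in wheel clodronate mice (mouse 5, 0.759). The lowest mouse stood apart for Ccl6 in wheel clodronate mice (mouse 4, 0.742). Not all marker lists were tested in this way. Among those that were, the macrophage score stood apart at the low end in wheel PBS mouse 5 (0.760).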

How the results depend on the processing

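Under all settings 0 of the 9 genes passed an adjusted p of 0.05. Of 1198 values for 36 changes, 1107 kept their direction and 91, in 21 changes, reversed it, none past the threshold; the cause was not tested. With clodronate, Ccr2 lay between -0.92 and -0.63 and kept an unadjusted p under 0.05 in 32 of 33 settings. Ccr1 (-0.85 to -0.26) kept it in 23 of 32 and Ccl7 (-1.35 to -0.68) in 16 of 33. Most settings left out 1 mouse or changed a scaling, pseudocount or filter. They shared most mice, so these counts are not independent support. The setting in which Ccr2 was not under 0.05 was that without the lymphocyte-rich mice (difference -0.77). Ccr1 was above the floor mostly in PBS mice. The floor limits the lowest genes. It hides up to 13 reads in the shallowest library and 20 in the deepest. Ccl12 and Ccr1 were at it in 12 and 14 mice, so changes below that level cannot be seen. With a mean of 5 CPM required, Ccl12 and Ccr1 were not tested. Groups of 5 and 6 mice with this spread give wide intervals.

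Numbers of genes called moved. In the wheel comparison with clodronate (1 gene), 3 were called among genes above the floor in 1 mouse, 0 with a mean of 5 CPM, 0 with only the groups compared, 12 without the lymphocyte-rich mice, 0 with the lymphocyte covariate, and 0 to 236 when 1 mouse was left out. Clodronate against PBS (31 genes) gave 54 with a mean of 5 CPM, 12 with upper-quartile scaling, 15 with scaling to assigned reads, 20 without a variance trend, 0 without the lymphocyte-rich mice, and 9 to 146 when 1 mouse was left out. The difference of the wheel effect (0 genes) gave 2 with genes above the floor in 1 mouse.

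The number of pairs of the 9 genes (14) was 9 without the lymphocyte-rich mice (8 of the 14 and 1 other), 9 by Spearman's rho, 0 in clodronate mice only, and 6 to 18 when 1 mouse was left out. Relations with marker lists (15) became 8 without the lymphocyte-rich mice, 8 with the lymphocyte covariate, 4 in PBS mice only, 0 in clodronate mice only, and 6 to 17 when 1 mouse was left out.

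A replicate block gave 0 genes in the wheel comparison with clodronate and 11 for clodronate against PBS. Mice with the same number were correlated over all genes tested, group means subtracted. The mean r was -0.075 between control and wheel PBS mice (1 of 6 pairs over 0.1) and 0.181 between control and wheel clodronate mice (3 of 5). It was 0.096 between control PBS and control clodronate mice (2 of 5) and 0.132 between wheel PBS and wheel clodronate mice (4 of 5). Mice with different numbers were not compared in this way, so these values cannot tell whether the numbers mark pairs or a shared batch.

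Without the lymphocyte-rich mice the direction reversed for the wheel with PBS in Ccl6 (-0.09), Ccl7 (0.14) and Ccl8 (0.15), for the wheel with clodronate in Ccl2 (-0.59), Ccl7 (-0.13), Ccl8 (-0.72) and Ccl9 (0.016), for clodronate in Ccl8 (-0.49), and for the difference in Ccl7 (-0.28), Ccl8 (-0.86) and Ccr1 (-0.12). With the lymphocyte covariate it reversed for the wheel with clodronate in Ccl2 (-0.82), Ccl7 (-0.28), Ccl8 (-0.13), Ccl12 (-0.28) and Ccr1 (-0.19), for clodronate in Ccl8 (-0.057), and for the difference in Ccl7 (-0.20), Ccl8 (-0.055) and Ccr1 (-0.34). Upper-quartile scaling reversed Ccl7 (0.016) and Ccl8 (0.045) for the wheel with PBS, Ccl2 (-0.0033) with clodronate, and Ccl9 (-0.031) and Ccr1 (-0.035) for the difference. A pseudocount of 5 reversed Ccl2 (-0.061) and Ccl12 (-0.00061) for the wheel with clodronate and Ccr1 (-0.034) for the difference, no pseudocount reversed Ccl2 (0.0047) for the difference, and scaling to assigned reads reversed Ccl9 (0.00063) for the wheel with clodronate.

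When 1 mouse was left out, these changes reversed for 1 or more mice: for the wheel with PBS Ccl2 (-0.51 to 0.46), Ccl6 (-0.20 to 0.36), Ccl7 (-0.57 to 0.26), Ccl8 (-0.36 to 0.31), Ccl9 (-0.33 to 0.038), Ccl12 (-0.15 to 0.49), Ccr1 (-0.15 to 0.31) and Ccr2 (-0.12 to 0.41); for the wheel with clodronate Ccl2 (-0.46 to 0.45), Ccl9 (-0.31 to 0.19) and Ccl12 (-0.031 to 0.26); and for the difference Ccl2 (-0.54 to 0.52), Ccl9 (-0.15 to 0.34), Ccl12 (-0.45 to 0.18) and Ccr1 (-0.16 to 0.36).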

Other observations

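Adipocyte, fibroblast and epithelial markers were abundant in this tissue, led by Cfd (mean 7228 CPM), Dcn (761 CPM) and Krt14 (333 CPM). The adipocyte list had a negative relation with Ccl8 (r = -0.57, permutation p = 0.00316, adjusted p = 0.031, rho = -0.54, permutation p = 0.00929, adjusted p = 0.0669, r = -0.60 without the 2 farthest mice), past the threshold by r and not by rho. Lymphocyte-rich wheel clodronate mice 3, 4 and 5, the highest in Ccl8, had adipocyte scores of 9.48, 9.45 and 9.64. Mice 1 and 2 of that group had 9.97 and 9.79. No r of Ccl8 with this list is given without the lymphocyte-rich mice. With clodronate against PBS, limma called 0 genes of the neutrophil, mast cell, epithelium, endothelium and skeletal muscle lists, whose median differences were -0.013, -0.039, 0.21, -0.15 and 1.54, and 0.04, -0.12, 0.37, -0.21 and 2.86 without the lymphocyte-rich mice. In the wheel comparison with clodronate, all 12 lymphocyte genes were higher at an unadjusted p under 0.05, with 0 called by limma and a median difference of 2.67, and the summed level ran from 13.8 to 791.2 CPM in the 5 wheel clodronate mice. This rests on wheel clodronate mice 3, 4 and 5. In the mice that were not lymphocyte-rich these genes were at or near the floor, so no direction can be read without the 5 mice.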
